A study of Mus musculus with 12 samples.

Results

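E-cadherin and the 3 catenins that bind its tail were followed through 4 populations of the mouse bone marrow, as RNA levels in 12 libraries. The genes are Cdh1 (E-cadherin), Ctnnb1 (beta-catenin), Ctnna1 (alpha-E-catenin) and Ctnnd1 (p120-catenin). They were taken from the deposited table by their gene symbols, and each symbol matched 1 row, so the account covers 4 of 14560 listed genes. The populations were sorted from the marrow of 3 C57BL/6J mice, with 3 libraries each and no altered gene or treatment named in the labels. DN-GMPs were gated as c-Kit+ Sca1- CD34+ CD16/32+ cells without surface CDH1 or FceRIa, the IgE-binding chain of the high-affinity IgE receptor. Pro-BMPs had the same gate but carried CDH1 and not FceRIa, and Pre-BMPs carried FceRIa and not CDH1. All 3 progenitor gates left out cells with B220, CD3, Ter119, CD11b or Gr1. Basophils were c-Kit- CD49b+ FceRIa+ cells without B220, CD4, CD8a, Ter119 or Sca1, and their gate did not use CDH1. By its title, the series is about E-cadherin as an early sign of progenitors turning towards the basophil and mast cell lineages. CDH1 protein at the surface was thus part of the sort of DN-GMPs, Pro-BMPs and Pre-BMPs, so a difference in Cdh1 RNA between DN-GMPs and Pro-BMPs checks the gate.

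E-cadherin is a calcium-dependent adhesion receptor that binds E-cadherin on a neighbouring cell. Its cytoplasmic tail binds beta-catenin, which recruits alpha-catenin and through it actin, while p120-catenin binds nearer the membrane and keeps the cadherin at the surface. Beta-catenin is also the transcriptional co-activator of the Wnt pathway, and a pool outside the cadherin complex is broken down by the Axin, APC and GSK3 destruction complex. E-cadherin is best known from epithelia, and among cells of blood origin from the Langerhans cells of the skin.

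In the mouse genome, build GRCm38, with the gene models of GENCODE release M21, Cdh1 (ENSMUSG00000000303) spans chromosome 8, 106603351 to 106670246, on the plus strand in 16 exon blocks. Its 4574 exon bases are shared with no other annotated gene. Ctnnb1 (ENSMUSG00000006932) lies on the plus strand of chromosome 9, 120929216 to 120960507. Of the 5192 exon bases of Ctnnb1, 15.1% are shared with other genes, nearly all of them (759 bases) with Ulk4 on the opposite strand. Libraries of this kind carry no strand information, and reads of such overlaps cannot be assigned to either gene. Ctnnd1 (ENSMUSG00000034101) lies on the minus strand of chromosome 2, 84600071 to 84650765. Of its 7319 exon bases, 4482 (61.2%) are shared with Gm28635, a protein-coding model on the same strand that spans 84601439 to 84678041 and has no row in the deposited table. A read on such bases can be counted as ambiguous and left out, so the level of Ctnnd1 can be understated where the authors' annotation, not given in the sources used here, held both models.

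RefSeq gives 2 starts for Ctnnd1, and they are shown because they lie on either side of the end of the GENCODE gene. Sequences are from RefSeq's promoter table (GRCm38.p6), which matched 2 of the 4 genes, and cover the 250 bases before a start. A start of Ctnnb1 is set beside them as the catenin with the most even level on the deposited scaling. Capitals mark TATAAA, read on both strands.
Ctnnd1, start inside the GENCODE gene, chr2:84650741-84650990, minus strand: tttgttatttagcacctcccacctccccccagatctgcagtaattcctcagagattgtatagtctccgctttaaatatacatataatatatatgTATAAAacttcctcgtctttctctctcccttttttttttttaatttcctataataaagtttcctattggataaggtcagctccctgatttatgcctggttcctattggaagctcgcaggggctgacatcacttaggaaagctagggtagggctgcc
Ctnnd1, start outside the GENCODE gene and inside Gm28635, chr2:84658978-84659227, minus strand: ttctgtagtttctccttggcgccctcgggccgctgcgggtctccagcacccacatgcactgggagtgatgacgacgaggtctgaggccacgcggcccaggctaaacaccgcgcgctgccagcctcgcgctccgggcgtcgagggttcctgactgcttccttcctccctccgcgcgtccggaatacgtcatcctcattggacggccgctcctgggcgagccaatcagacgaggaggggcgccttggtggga
Ctnnb1, chr9:120933328-120933577, plus strand: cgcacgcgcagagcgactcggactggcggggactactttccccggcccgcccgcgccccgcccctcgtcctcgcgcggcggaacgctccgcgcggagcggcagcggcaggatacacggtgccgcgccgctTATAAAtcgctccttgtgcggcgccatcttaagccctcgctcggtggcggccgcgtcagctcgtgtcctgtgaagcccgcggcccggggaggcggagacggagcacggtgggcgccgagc
The window of the Ctnnd1 start that lies inside the GENCODE gene had 40.0% G and C and 3 CG pairs, and that of the outer start had 66.8% and 26, against a median of 52.4% G and C over 32851 windows of this length. The Ctnnb1 window had 74.4% G and C and 43 CG pairs. TATAAA was found in the window of the inner Ctnnd1 start and in this Ctnnb1 window, and 12.4% of all windows hold it. The TCF and LEF core CTTTGA (13.8% of all windows), the Snail and Zeb E-box CAGGTG (17.2%) and the GATA site AGATAA (9.99%) were not in the 4 windows of these genes, searched on both strands with no overlap between motifs in a match. The deposited table counts reads per gene, so it does not say from which start the Ctnnd1 reads came.

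Levels are given in CPM, reads per 1000000 of the authors' scaled library size. A library held 29762981 to 42502405 reads on listed genes, and 3 reads, the limit that a count of 0 allows, correspond to 0.0512 to 0.0745 CPM. The rank correlation between libraries of a population was 0.954 to 0.967. The summed level of 7 basophil genes was 39.7 to 62.8 CPM in DN-GMPs and 345 to 481 CPM in Pro-BMPs. It was 2898 to 3561 CPM in Pre-BMPs and 32926 to 38593 CPM in basophils. Among the 7 were Fcer1a, which codes for the FceRIa of the gates, and Itga2, which codes for the CD49b of the basophil gate. The summed level of 8 eosinophil genes was 26.3 to 48.3 CPM in DN-GMPs, where Il5ra, Ear1, Ear2 and Ear6 were at 0, 1912 to 3072 CPM in Pro-BMPs, 2280 to 3821 CPM in Pre-BMPs and 254 to 420 CPM in basophils. All 8 passed limma's test as higher in Pro-BMPs than in DN-GMPs (2.00% of all genes) and as lower in basophils than in Pre-BMPs (16.5% of all genes). Of 9 mast cell genes 3 had a row. Their sum was 216 to 335 CPM in DN-GMPs, 290 to 316 CPM in Pro-BMPs and 533 to 777 CPM in Pre-BMPs. In basophils it was 10.6 to 30.4 CPM. Most of it was Kit, which averaged 261, 303, 463 and 22.4 CPM from DN-GMPs to basophils. Its product, c-Kit, was part of the gates. Cma1 averaged 0.0527, 0.992, 141 and 0.554 CPM in the same order, and Tpsb2 was at 0 in DN-GMPs and Pro-BMPs. Of 12 erythroid genes 11 had a row, and their sum was 135 to 151 CPM in DN-GMPs, 188 to 236 CPM in Pro-BMPs, 397 to 488 CPM in Pre-BMPs and 70.0 to 77.6 CPM in basophils, with Alas2 at 0 in DN-GMPs and basophils. The sum of 7 monocyte and dendritic cell genes was 1227 to 1514 CPM in DN-GMPs and 74.5 to 126 CPM in Pro-BMPs. It was 116 to 179 CPM in Pre-BMPs and 267 to 442 CPM in basophils. Most of it in basophils was Ccr2, which averaged 302 CPM there and 5.92 CPM in Pre-BMPs. F13a1 (31.1 and 4.55 CPM) and Csf1r (4.74 and 3.28 CPM) also averaged more in basophils than in Pre-BMPs. Cx3cr1 (10.1 and 125 CPM), Irf8, Ly86 and Flt3 averaged less. The sum of 8 neutrophil genes was 18938 to 21807, 17669 to 19665, 5364 to 6469 and 2897 to 4046 CPM from DN-GMPs to basophils. The part of these kinds of cells in the results was not tested. Of 11 epithelial markers, 4 had a row in the table. Their summed level was 16.8 to 23.0 CPM in DN-GMPs, 24.8 to 37.5 CPM in Pro-BMPs, 30.9 to 37.1 CPM in Pre-BMPs and 12.8 to 34.8 CPM in basophils, and most of it in the progenitors was Krt18. Cldn1 was at 0 in all DN-GMP and Pro-BMP libraries and averaged 12.99 CPM in basophils, while Cldn3 averaged at most 0.786 CPM in any population. The scaled library size was 1.03 to 1.08 times all reads in the table in the 9 progenitor libraries and 0.839 to 0.858 times in the basophil libraries, so levels in basophils depend on the scaling more than the others do. In bulk RNA of sorted cells, fewer cells with a transcript and less of it per cell cannot be told apart.

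Cdh1 RNA rose at every step from DN-GMPs to basophils, and it was the member whose level changed most. In DN-GMPs it was counted 1, 5 and 6 times, which is 0.0212, 0.103 and 0.149 CPM. In Pro-BMPs it stood at 56.0, 33.6 and 38.8 CPM, in Pre-BMPs at 157, 105 and 178 CPM, and in basophils at 1201, 1064 and 884 CPM. No library of a population overlapped the range of another. The means were 0.0911 ± 0.0647, 42.8 ± 11.7, 147 ± 37.6 and 1050 ± 159 CPM in the order of the gates, basophils last (SD, n = 3 each). By the F-test over the 4 populations, Cdh1 ranked 44th of 14560 genes (limma adjusted p = 2.33e-08), where 46.8% of all genes passed.

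Against the 12 reads that the DN-GMP libraries held together, 0.0883 CPM with an exact Poisson 95% interval of 0.0456 to 0.154, Cdh1 was 485 times higher in Pro-BMPs (95% interval 278 to 939). The ratio to DN-GMPs was 1662 (952 to 3217) for Pre-BMPs and 11891 (6807 to 23013) for basophils. These intervals cover counting error only, and not the spread between libraries. On the deposited log2 scale Cdh1 was higher in Pro-BMPs than in DN-GMPs by 8.97 (SE 0.492, limma adjusted p = 1.55e-06). This call was not made with voom weights (adjusted p = 0.114). It was the 16th largest increase of 14560 genes in that comparison, in which 2.53% of genes were called in either direction.

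Surface CDH1 and Cdh1 RNA did not run in the same order between the Pro-BMP and Pre-BMP gates. Pre-BMPs, sorted as CDH1-, held 3.43 times the Cdh1 RNA of Pro-BMPs, sorted as CDH1+, a log2 difference of 1.78 (SE 0.492, limma adjusted p = 0.0449). Here 9.49% of all genes were called. The lowest Pre-BMP library, at 105 CPM, lay above the highest Pro-BMP library, at 56.0 CPM. The call was close to the threshold of 0.05 and was lost in 9 of 12 fits that left out a library, namely any Pro-BMP, Pre-BMP or basophil library, with adjusted p of 0.0585 to 0.152 and differences of 1.62 to 2.00. Without a mean-variance trend adjusted p was 0.0859.

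Basophils had 7.27 times the Cdh1 RNA of Pre-BMPs, a log2 difference of 2.86 (SE 0.492, limma adjusted p = 0.00115), in a comparison with 30.4% of genes called. Leaving out any of the 12 libraries kept this call. Basophils stood 4.64 above Pro-BMPs (limma adjusted p = 2.22e-05, 41.1% of genes called, 19.3% higher and 21.8% lower) and 13.61 above DN-GMPs (limma adjusted p = 4.63e-09, 46.4% called, 23.2% higher and 23.2% lower). Pre-BMPs stood 10.74 above DN-GMPs (limma adjusted p = 9.73e-08, 21.9% called, 12.2% higher and 9.69% lower). Cdh1 thus passed the test in all 6 pairs of populations.

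**Figure D1:**
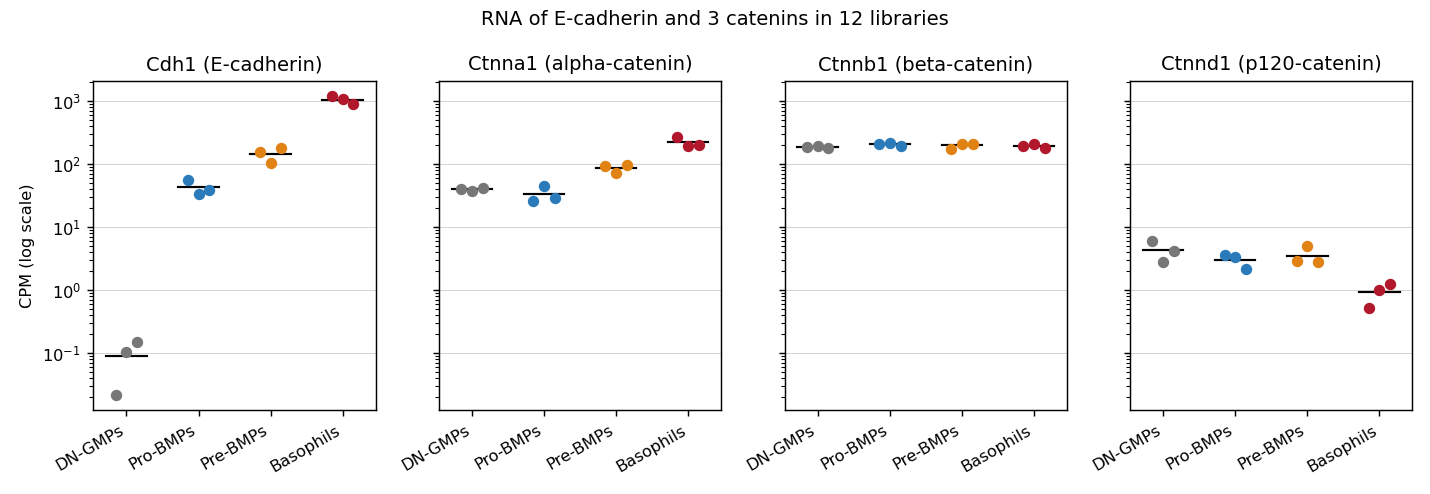
CPM of Cdh1, Ctnna1, Ctnnb1 and Ctnnd1 (vertical axis, log scale) in the 12 libraries by population (horizontal axis), with points for libraries and a line at the mean of 3. Cdh1 averages 0.0911 CPM in DN-GMPs, 42.8 CPM in Pro-BMPs, 147 CPM in Pre-BMPs and 1050 CPM in basophils, Ctnna1 is highest in basophils at 221 CPM, Ctnnb1 stays between 176 and 216 CPM on the deposited scaling, and Ctnnd1 is lowest in basophils at 0.916 CPM.

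Ctnnb1, the catenin that joins the cadherin tail to alpha-catenin, was the most even of the 4 genes on the deposited scaling. It stood at 183, 192 and 181 CPM in DN-GMPs, at 207, 216 and 195 CPM in Pro-BMPs, at 176, 207 and 208 CPM in Pre-BMPs and at 197, 210 and 182 CPM in basophils. The Pro-BMP libraries all lay above the DN-GMP libraries, and every other pair of populations overlapped. The means were 185 ± 6.13, 206 ± 10.5, 197 ± 18.3 and 196 ± 13.9 CPM in the order of the gates (SD, n = 3 each). None of the 6 pairs passed limma's test, with adjusted p of 0.515 to 0.976 and unadjusted p of 0.130 to 0.960, and the 95% intervals of the log2 differences lay between -0.28 and 0.36. The F-test adjusted p was 0.547.

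That evenness depended on how basophil libraries were scaled. With reads on listed genes as the library size, Ctnnb1 was lower in basophils than in Pre-BMPs by 0.33 (limma adjusted p = 0.0188) and than in Pro-BMPs by 0.36 (adjusted p = 0.00879) on the log2 scale. That scaling moved the median of all genes in these comparisons by -0.321 and -0.288. Relative to the median gene, Ctnnb1 differed by 0.10 between basophils and Pre-BMPs and by 0.00 between basophils and Pro-BMPs. Quantile normalization also called both comparisons, at -0.29 (adjusted p = 0.0383) and -0.33 (adjusted p = 0.0167). There the differences relative to the median gene were -0.24 and -0.26, so Ctnnb1 lay below the median gene with that normalization. The same choice moved the share of calls that were higher in basophils. With the deposited scaling it was 45.6% against Pre-BMPs, 47.0% against Pro-BMPs and 50.0% against DN-GMPs, and with reads on listed genes it was 26.6%, 33.0% and 38.7%.

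Ctnna1, which links the beta-catenin bound to a cadherin with actin, rose in Pre-BMPs and again in basophils. The gene (ENSMUSG00000037815, chromosome 18, 35118859 to 35254779, plus strand) shares 1.48% of its 6425 exon bases with Lrrtm2 on the opposite strand, which was at most at 5.14 CPM in any library. Ctnna1 stood at 40.8, 37.2 and 42.0 CPM in DN-GMPs, at 25.8, 45.3 and 28.6 CPM in Pro-BMPs, at 91.7, 71.1 and 94.7 CPM in Pre-BMPs and at 267, 194 and 200 CPM in basophils. The ranges of DN-GMPs and Pro-BMPs overlapped, and those of Pre-BMPs and basophils lay above both and apart from each other. Means were 40.0 ± 2.47, 33.2 ± 10.6, 85.8 ± 12.8 and 221 ± 40.7 CPM in the order of the gates (SD, n = 3 each).

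Pre-BMPs had 2.65 times the Ctnna1 RNA of Pro-BMPs, a log2 difference of 1.40 (SE 0.216, limma adjusted p = 0.00213). Basophils had 2.56 times that of Pre-BMPs, a difference of 1.36 (SE 0.216, limma adjusted p = 6.80e-04). Against DN-GMPs the difference was 1.09 in Pre-BMPs (limma adjusted p = 0.00418) and 2.45 in basophils (limma adjusted p = 3.98e-06), and against Pro-BMPs it was 2.76 in basophils (limma adjusted p = 2.03e-06). Pro-BMPs and DN-GMPs differed by -0.31 (limma adjusted p = 0.595), with a 95% interval of -0.79 to 0.16. So 5 of 6 pairs passed, and each of these calls held in all 8 other settings and in all 12 fits that left out a library. In these 5 pairs 9.49% (Pre-BMPs and Pro-BMPs) to 46.4% (basophils and DN-GMPs) of all genes were called. At the step from DN-GMPs to Pro-BMPs, where Cdh1 RNA appeared and 2.53% of all genes were called, none of the 3 catenins passed limma's test. Their unadjusted p was 0.176 for Ctnna1, 0.130 for Ctnnb1 and 0.366 for Ctnnd1.

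Ctnnd1, whose product binds the cadherin near the membrane and protects it from uptake, had the lowest level per exon length of the 3 catenins and was lower still in basophils. It stood at 5.92, 2.82 and 4.22 CPM in DN-GMPs, at 3.65, 3.30 and 2.13 CPM in Pro-BMPs, at 2.89, 4.93 and 2.74 CPM in Pre-BMPs and at 0.509, 0.995 and 1.25 CPM in basophils. The 3 basophil values rest on 22, 43 and 54 reads, and they lay below every progenitor library, while the progenitor ranges overlapped each other. Means were 4.32 ± 1.55, 3.03 ± 0.791, 3.52 ± 1.22 and 0.916 ± 0.375 CPM in the order of the gates (SD, n = 3 each).

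Ctnnd1 was lower in basophils than in DN-GMPs by a log2 difference of -2.25 (SE 0.515, limma adjusted p = 0.00393). Against Pre-BMPs the difference was -1.97 (limma adjusted p = 0.0133), and against Pro-BMPs it was -1.77 (limma adjusted p = 0.0172). In the pairs with basophils 30.4% to 46.4% of all genes were called. The comparison with Pre-BMPs lost its call without Pre-BMP replicate 2 (adjusted p = 0.0597). The comparison with Pro-BMPs lost it without Pro-BMP replicate 1 (0.0587) or 2 (0.0533) or basophil replicate 1 (0.0625), and with voom weights (0.0571). The 3 pairs of progenitors were not called, with limma adjusted p of 0.739 to 0.879, and the 95% interval for Pro-BMPs minus DN-GMPs ran from -1.62 to 0.64. The part of the exons shared with Gm28635 in these values was not tested.

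**Figure D2:**
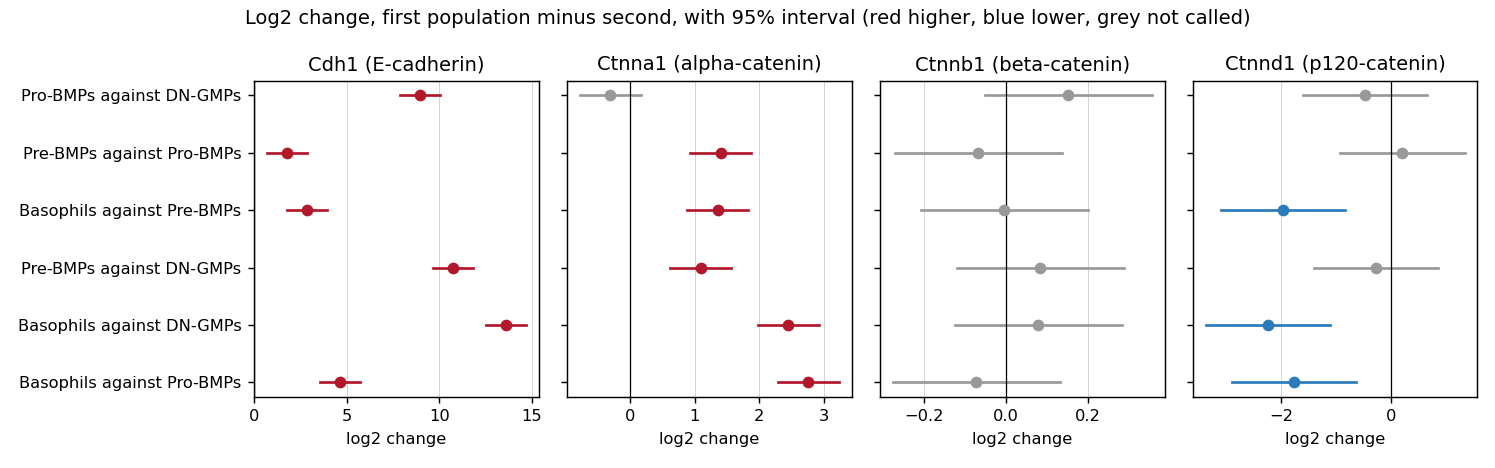
Difference in mean log2 value (horizontal axes, each gene with its own scale, first population minus second) for the 6 pairs of populations (vertical axis), with 95% intervals as bars, red for higher and blue for lower in the first population by limma's adjusted p under 0.05, and grey for not called. Cdh1 is higher in all 6 pairs, Ctnna1 in 5, Ctnnd1 is lower in the 3 pairs with basophils, and Ctnnb1 passes in none on the deposited scaling, although 2 pairs with basophils were called lower with other scalings.

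The ratio of 2 genes within a library does not depend on the scaling of that library, so each member was set over Ctnnb1. Cdh1 had 0.000450 reads for each read of Ctnnb1 among DN-GMPs, 0.203 among Pro-BMPs, 0.730 among Pre-BMPs and 5.32 among basophils, as geometric means of 3 libraries. Its log2 ratio was -11.12 ± 1.22, -2.30 ± 0.400, -0.45 ± 0.454 and 2.41 ± 0.174 in the same order (SD, n = 3 each). No libraries of different populations overlapped, and the exact permutation test over 369600 divisions of the libraries gave p = 6.49e-05, the smallest it can give (adjusted p = 1.95e-04 over 3 ratios).

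Ctnna1 had 0.215 reads for each read of Ctnnb1 among DN-GMPs, 0.156 among Pro-BMPs, 0.434 among Pre-BMPs and 1.11 among basophils (exact permutation p = 1.30e-04, adjusted p = 1.95e-04). Ctnnd1 had 0.0224, 0.0144, 0.0173 and 0.00445 in the same order (exact permutation p = 0.00623, adjusted p = 0.00623). All 3 ratios thus differed among the populations, and basophils held the highest mean ratio for Ctnna1 and the lowest for Ctnnd1. The ratios counted reads and not molecules, since the genes differ in exon length.

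**Figure D3:**
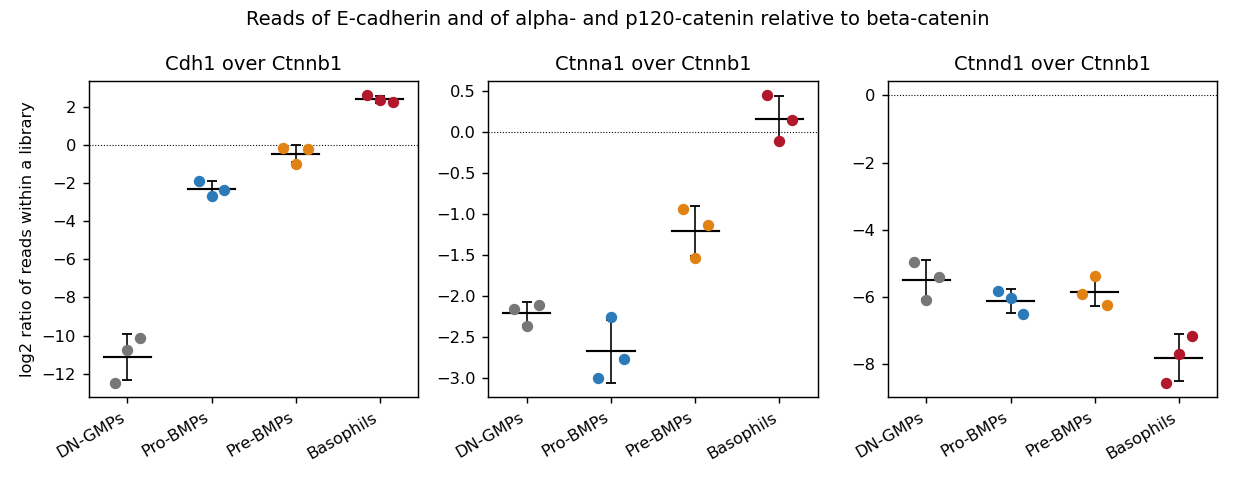
Log2 ratio of the reads of Cdh1, Ctnna1 and Ctnnd1 to those of Ctnnb1 within a library (vertical axes), grouped along the horizontal axes by population. Points are the 12 libraries, and bars give means and SDs of 3. The Cdh1 ratio crosses 0, equal reads, between Pre-BMPs at a mean of -0.45 and basophils at 2.41, and the Ctnnd1 ratio is lowest in basophils at -7.81.

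Per kilobase of exon, which allows levels of different genes to be compared, the order of the 4 genes changed along the gates. In DN-GMPs Ctnnb1 was highest at 35.7 CPM per kilobase, ahead of Ctnna1 at 6.22, Ctnnd1 at 0.590 and Cdh1 at 0.0199. In Pro-BMPs Cdh1, at 9.36 CPM per kilobase, was above Ctnna1 at 5.17 and below Ctnnb1 at 39.7. In Pre-BMPs Cdh1 averaged 32.1 CPM per kilobase beside Ctnnb1 at 37.9, with overlapping libraries. If reads on the exon bases that Ctnnb1 shares with other genes were all left out, its mean there would be 44.6 per kilobase of unshared exon. Whether the libraries overlap on that length was not tested. In basophils Cdh1 reached 229 CPM per kilobase, against 37.7 for Ctnnb1, 34.3 for Ctnna1 and 0.125 for Ctnnd1.

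These levels place Cdh1 at percentile 4.76 of the 14515 genes with an exon length in DN-GMPs, at 68.7 in Pro-BMPs, at percentile 89.5 in Pre-BMPs and at 99.0 in basophils. Ctnna1 stood at percentile 60.9, 56.2, 76.0 and 89.0 in the same order, and Ctnnb1 between 90.1 and 91.5 throughout. Ctnnd1 stood at 22.4, 17.1, 17.6 and 9.60. If reads on the exons shared with Gm28635 were all left out by the authors, the Ctnnd1 level per kilobase of its 2837 unshared bases would be 1.52 in DN-GMPs, 1.07 in Pro-BMPs, 1.24 in Pre-BMPs and, among basophils, 0.323, below the other catenins in each population.

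**Figure D4:**
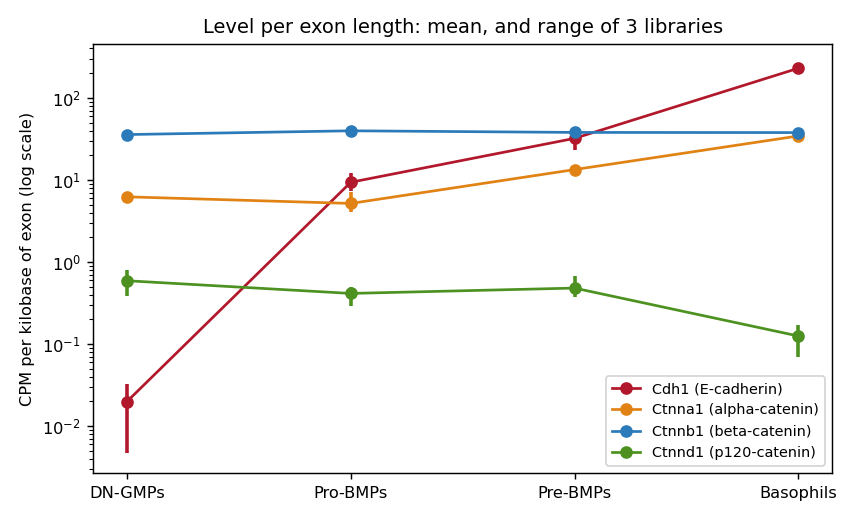
CPM per kilobase of exon (vertical axis, log scale) of the 4 genes in each population (horizontal axis), with points for the mean and bars for the lowest and highest of 3 libraries. Cdh1 is lowest in DN-GMPs at 0.0199 and highest in basophils at 229, while Ctnnb1 lies between 35.7 and 39.7 on the deposited scaling.

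Across the 12 libraries, the log2 levels of Cdh1 and Ctnna1 had a Pearson r of 0.68, Cdh1 and Ctnnd1 -0.67, Ctnna1 and Ctnnd1 -0.78, and Cdh1 and Ctnnb1 0.37. These are descriptions over libraries that share 4 population means. Among 13375 genes with at least 1 CPM in some population, the genes most like Cdh1 over the 12 libraries were Cyp11a1 (r = 0.993), Inpp4b (r = 0.992) and Prss34 (r = 0.991). Cyp11a1, the side-chain cleavage enzyme of steroid synthesis, averaged 0, 12.9, 130 and 1172 CPM from DN-GMPs to basophils. Inpp4b, a phosphoinositide phosphatase, averaged 0, 9.36, 37.6 and 211 CPM, and the basophil protease gene Prss34 0.0343, 99.7, 1117 and 21666 CPM.

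The genes most like Ctnna1 were Mindy2 (r = 0.985), Chn2 (r = 0.975) and Coro1b (r = 0.975). Those most like Ctnnd1 were 1810024B03Rik, Fdx2 and Cenpk, with r of 0.964 to 0.965. Those most like Ctnnb1, ENSMUSG00000097131, Slc35a3 and Acer2, had lower r of 0.814 to 0.842. Over the 4 population means in place of the 12 libraries, 0 of these 3 genes were shared for each member, so the ranking depends on the measure.

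Other cadherins and catenin relatives were mostly low or not listed. Of 30 such genes, 10 had a row, and the cadherins among them were Cdh23 and Cdh24, at means of at most 8.58 and 1.41 CPM. Plakoglobin (Jup), which can take the place of beta-catenin on a cadherin tail, averaged 5.73, 4.75, 14.0 and 6.23 CPM from DN-GMPs to basophils and was not called by the F-test (limma adjusted p = 0.0707). By limma 0 of the 10 passed between Pro-BMPs and DN-GMPs (1 at an unadjusted p under 0.05, 0 with voom weights). Between Pre-BMPs and Pro-BMPs 0 passed too (2 and 1). Over all genes 2.53% and 9.49% were called in these pairs. Between basophils and Pre-BMPs 1 rose (13.9% of all genes rose) and 3 fell (16.5% fell), and the median change was -0.55, against -0.10 over all genes.

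Pkp3 (plakophilin 3), a plaque protein of desmosomes from the p120 family, was the relative that rose. It stood at 160, 115 and 147 CPM in basophils, against 25.3, 22.4 and 28.6 CPM in Pre-BMPs, a difference of 2.46 (SE 0.585, limma adjusted p = 0.00791). It averaged 8.45 CPM in Pro-BMPs and 4.25 CPM in DN-GMPs. Arvcf, a closer relative of p120 that also binds classical cadherins, was instead highest in Pre-BMPs. It stood at 31.1, 13.6 and 28.1 CPM there, against 0, 1.56 and 0.0248 CPM in DN-GMPs, a difference of 8.06 (SE 2.04, limma adjusted p = 0.0157). In basophils it was at 3.79, 0.671 and 0 CPM, a difference of -6.20 from Pre-BMPs (SE 2.04, limma adjusted p = 0.0386).

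The Arvcf call between basophils and Pre-BMPs was lost in 8 of 12 fits, those without any Pro-BMP or Pre-BMP library or without basophil replicate 2 or 3, with adjusted p of 0.0508 to 0.124. That between Pre-BMPs and DN-GMPs was lost without DN-GMP replicate 1 or 3 or Pre-BMP replicate 3 (0.0522 to 0.0590). Pkp4, another p120 relative, was lower in basophils than in Pre-BMPs by -3.38 (SE 0.901, limma adjusted p = 0.0145), at 0.20 CPM against 1.53 CPM, and Ctnnal1 was lower by -4.96 (SE 1.55, limma adjusted p = 0.0312). The Pkp4 call was lost without Pre-BMP replicate 1 (adjusted p = 0.0546) or 3 (0.0518), and the Ctnnal1 call without Pre-BMP replicate 1 (0.0932) or 2 (0.0940) or basophil replicate 1 (0.0505). Ctnnbl1 was lower in basophils than in DN-GMPs by -0.59 (limma adjusted p = 0.0384), at 83.4 CPM against 122 CPM with overlapping libraries. This call was lost without DN-GMP replicate 2 or 3, Pro-BMP replicate 3, Pre-BMP replicate 3 or basophil replicate 2 or 3 (adjusted p of 0.0505 to 0.134). The 3 calls of lower relatives between basophils and Pre-BMPs came to 0 without Pre-BMP replicate 1 and to 1 without Pre-BMP replicate 2 or 3. With reads on listed genes as the library size they came to 5. That library size called 3813 of all genes lower in this pair, against 2408 on the deposited scaling.

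Among 19 listed junction and actin partners of alpha-catenin, 0 passed limma's test between Pro-BMPs and DN-GMPs (2.53% of all genes called). The count was also 0 at an unadjusted p under 0.05 and 0 with voom weights. Between Pre-BMPs and Pro-BMPs 2 rose and 0 fell (4.80% and 4.69% of all genes), namely Tjp1 and Zyx, the second named after its value was seen. Between basophils and Pre-BMPs 6 rose and 2 fell (13.9% and 16.5% of all genes), with a median of -0.13 against -0.10 over all genes. Tjp1 (ZO-1), a scaffold of tight junctions that binds alpha-catenin, averaged 0.220 CPM in DN-GMPs, 0.302 CPM in Pro-BMPs, 5.79 CPM in Pre-BMPs and 14.8 CPM in basophils. Its difference between basophils and DN-GMPs was 8.34 (SE 1.84, limma adjusted p = 0.00323).

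Afdn (afadin), which ties nectins to alpha-catenin, averaged 20.3 CPM in basophils against 1.01 CPM in DN-GMPs, a difference of 5.14 (SE 0.980, limma adjusted p = 0.00123). The actin-binding Ablim1 went the other way, at 3.08 CPM in basophils against 27.6 CPM in DN-GMPs, a difference of -6.51 (SE 1.69, limma adjusted p = 0.00820). The call of Ablim1 was lost when the 2 populations were fitted alone (adjusted p = 0.0538). Actn1 (alpha-actinin 1) was also lower in basophils than in DN-GMPs (limma adjusted p = 0.0225), at 0.270 CPM against 1.95 CPM, and lost its call without DN-GMP replicate 2 or 3 or basophil replicate 3 (adjusted p of 0.0532 to 0.0764). The 2 calls of higher partners between Pre-BMPs and Pro-BMPs came to 4 without DN-GMP replicate 1, and to 1 without Pro-BMP replicate 1 or 2 or any Pre-BMP or basophil library. The 2 calls of lower partners between basophils and Pre-BMPs came to 0 with no mean-variance trend, to 1 with the 2 populations fitted alone, and to 0 or 1 without DN-GMP replicate 3 or any Pro-BMP, Pre-BMP or basophil library.

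Fyn, a Src-family kinase that phosphorylates catenins, passed in all 6 pairs. It stood at 11.3, 16.1 and 12.96 CPM in DN-GMPs, at 29.4, 28.2 and 22.0 CPM in Pro-BMPs, at 80.0, 82.2 and 89.2 CPM in Pre-BMPs and at 313, 269 and 240 CPM in basophils. No ranges overlapped. The difference between basophils and Pre-BMPs was 1.70 (SE 0.176, limma adjusted p = 3.08e-05), and that between Pro-BMPs and DN-GMPs was 0.98 (SE 0.176, limma adjusted p = 0.0115), a call lost with voom weights (0.134), with the 2 populations fitted alone (0.143) and without Pro-BMP replicate 1 (0.0529).

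Fer, a kinase that binds p120, averaged 67.4 CPM in basophils against 18.0 CPM in Pre-BMPs, a difference of 1.96 (SE 0.424, limma adjusted p = 0.00467). Vav2, a signalling protein that p120 binds, was lower in basophils, at 0, 0.162 and 0.0231 CPM, against 9.17, 5.29 and 2.79 CPM in Pre-BMPs. Its difference was -6.97 (SE 0.873, limma adjusted p = 1.26e-04).

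Of 17 listed genes for the processing and traffic of cadherins, 12 rose and 0 fell between basophils and Pre-BMPs (13.9% and 16.5% of all genes). At the earlier steps 0 passed limma's test between Pro-BMPs and DN-GMPs (2 at an unadjusted p under 0.05, 0 with voom weights). Between Pre-BMPs and Pro-BMPs 0 passed too (3 and 1). Over all genes 2.53% and 9.49% were called in these pairs. The median change between basophils and Pre-BMPs was 0.70, against -0.10 over all genes. Furin, the protease that trims the E-cadherin precursor, stood at 204, 171 and 214 CPM in basophils, against 49.3, 54.8 and 70.0 CPM in Pre-BMPs, a difference of 1.77 (SE 0.223, limma adjusted p = 1.35e-04). Numb, an endocytic adaptor, averaged 121 CPM in basophils and 23.7 CPM in Pre-BMPs (log2 difference 2.39, SE 0.329, limma adjusted p = 2.55e-04). Rab11a, which serves the recycling endosome on the route of E-cadherin to the membrane, averaged 245 and 86.7 CPM in the same order (log2 difference 1.49, SE 0.159, limma adjusted p = 3.76e-05).

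The count of 12 came to 5 with reads on listed genes as the library size, with 0 lower. That library size called 1379 of all genes higher and 3813 lower in this pair. Without Pre-BMP replicate 2 or without basophil replicate 1 the count came to 7. Adam15, a membrane protease reported to shed E-cadherin, was highest in DN-GMPs at 58.4 CPM. It was lower in Pre-BMPs at 15.8 CPM, a difference of -2.01 (SE 0.379, limma adjusted p = 0.00310). In basophils it averaged 33.6 CPM, and it was among the 12 genes that rose between basophils and Pre-BMPs. That call was lost in 7 of 12 fits that left out a library. It was also lost in 3 of 8 other settings, including reads on listed genes as the library size.

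Of the receptors on other cells that bind E-cadherin, all 5 listed genes had a row. Itgb7, the chain that forms the E-cadherin receptor of lymphocytes with the integrin alpha E chain, passed in all 6 pairs. It stood at 4.99, 3.29 and 5.31 CPM in DN-GMPs, at 26.3, 18.0 and 38.9 CPM in Pro-BMPs, at 212, 180 and 206 CPM in Pre-BMPs and at 1246, 1126 and 1053 CPM in basophils. The ranges lay apart. The differences were 2.57 between Pro-BMPs and DN-GMPs (SE 0.257, limma adjusted p = 1.45e-04), 2.91 between Pre-BMPs and Pro-BMPs (limma adjusted p = 5.90e-05) and 2.52 between basophils and Pre-BMPs (limma adjusted p = 2.79e-05).

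Its partner for E-cadherin, Itgae, was far lower, at 8.95 ± 3.53 CPM in basophils and 0.501 ± 0.442 CPM in Pre-BMPs (SD, n = 3 each), a difference of 5.58 (SE 1.39, limma adjusted p = 0.0100). The chains of the collagen receptor alpha 2 beta 1, which can also bind E-cadherin, were higher in basophils than in DN-GMPs, Itga2 by 8.92 (SE 2.06, limma adjusted p = 0.00415) and Itgb1 by 0.85 (SE 0.184, limma adjusted p = 0.00277). CD49b, the product of Itga2, was part of the basophil gate.

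Of 11 listed repressors of Cdh1 transcription, 0 passed limma's test between Pro-BMPs and DN-GMPs, where Cdh1 RNA appeared. At an unadjusted p under 0.05 there were 2, and with voom weights 0. Only 2.53% of all genes were called in that pair. Between basophils and Pre-BMPs 1 rose and 3 fell (13.9% and 16.5% of all genes). With reads on listed genes as the library size or with quantile normalization 5 fell. Over all genes 3813 and 2569 fell with these scalings, against 2408 on the deposited scaling. Zeb2 was lower in basophils, at 46.9, 64.5 and 50.6 CPM, against 107, 121 and 127 CPM in Pre-BMPs, a difference of -1.14 (SE 0.128, limma adjusted p = 5.43e-05). Zeb1, its close relative, was higher in basophils, at 46.6, 41.2 and 50.2 CPM, than in DN-GMPs, at 22.1, 14.2 and 13.1 CPM. That difference was 1.52 (SE 0.230, limma adjusted p = 2.45e-04). Between basophils and Pre-BMPs Zeb1 was not called, at means of 46.0 and 36.4 CPM. It was called higher in Pre-BMPs than in Pro-BMPs by 0.85, a call lost in 9 of 12 fits that left out a library. Between Pro-BMPs and DN-GMPs, Zeb2 averaged 111 and 149 CPM and Zeb1 20.04 and 16.5 CPM, neither of them called. The Zeb2 libraries lay apart, at 108 to 115 CPM in Pro-BMPs and 146 to 154 CPM in DN-GMPs, while those of Zeb1 overlapped.

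Snai3 averaged 3.06 CPM in basophils and 0.224 CPM in Pre-BMPs (limma adjusted p = 0.0222, lost without Pre-BMP or basophil replicate 2 or 3, at 0.0605 to 0.0852), and Tcf4 (E2-2) 22.4 and 54.8 CPM (limma adjusted p = 0.00691). Of 10 listed activators of Cdh1 and of the epithelial programme, 2 had a row. Hnf4a, at 4.19 CPM in Pre-BMPs and 0.0154 CPM in DN-GMPs, passed between these populations (limma adjusted p = 0.0180), and the call was lost without DN-GMP replicate 2 or Pre-BMP replicate 2 or 3 (adjusted p of 0.0519 to 0.0612).

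**Figure D5:**
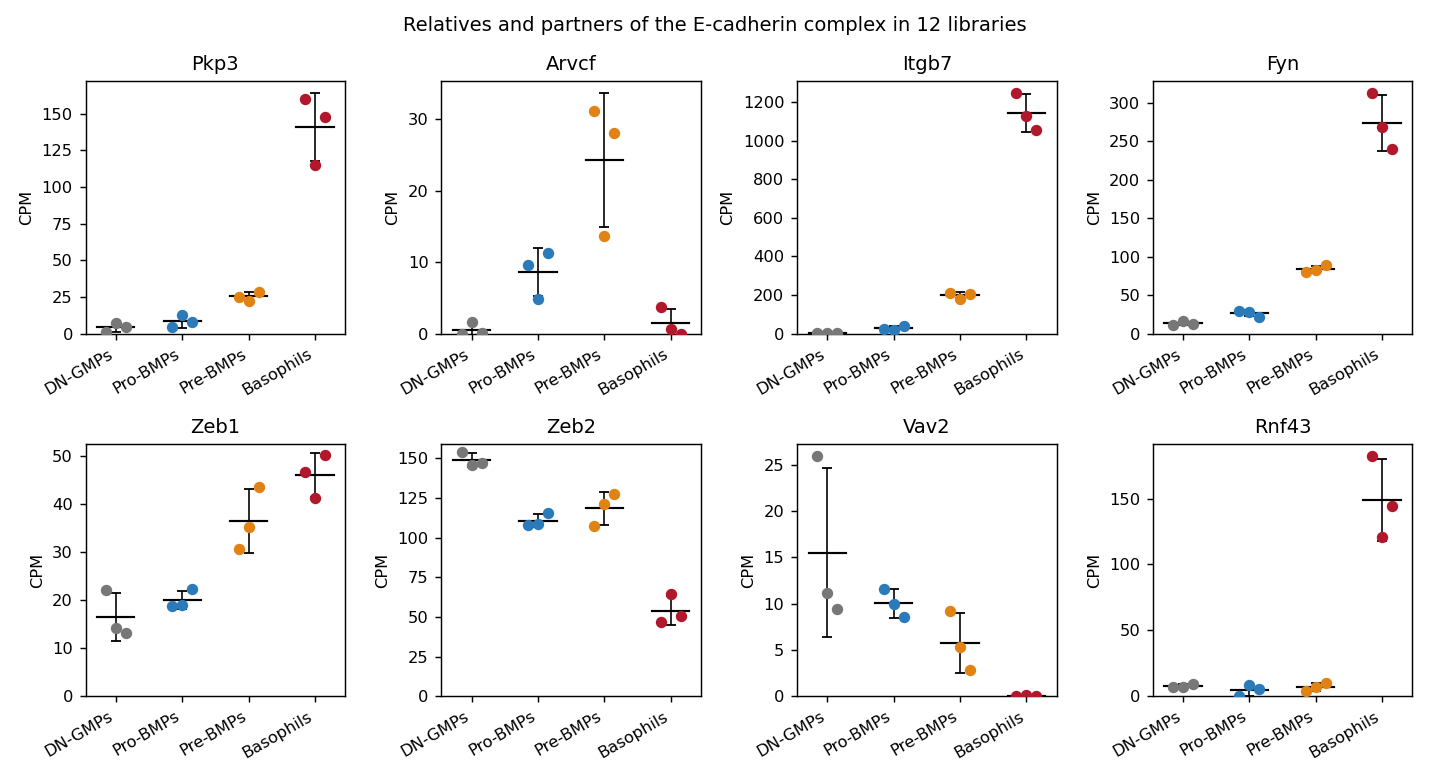
CPM of 8 relatives and partners of the complex (linear vertical axes starting at 0), grouped along the horizontal axes by population. Points are the 12 libraries, and bars give means and SDs of 3. Itgb7, Fyn and Pkp3 have their highest means in basophils at 1142, 274 and 141 CPM, Arvcf has its own in Pre-BMPs at 24.3 CPM, and Zeb2 and Vav2 are lowest in basophils at 54.0 and 0.0617 CPM.

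Of 13 listed genes of the destruction complex and its regulators, which act on beta-catenin in Wnt signalling, 2 rose and 0 fell between basophils and Pre-BMPs (13.9% and 16.5% of all genes), so the higher calls were near the share of all genes. Those were the kinases Gsk3b, at 92.9 CPM in basophils against 47.7 CPM in Pre-BMPs (log2 difference 0.95, limma adjusted p = 0.0109), and Gsk3a, at 48.1 CPM against 32.0 CPM (0.59, limma adjusted p = 0.0126). At the earlier steps 0 passed limma's test between Pro-BMPs and DN-GMPs (1 at an unadjusted p under 0.05, 2.53% of all genes called) and 0 between Pre-BMPs and Pro-BMPs (2, and 9.49% called), and 0 with voom weights. With reads on listed genes as the library size 0 of the 13 rose and 3 fell, where 1379 of all 14560 genes rose and 3813 fell. On the deposited scaling 2019 rose and 2408 fell. The calls for this list thus moved with the scaling, as those over all genes did. Without DN-GMP replicate 1 the 2 higher calls came to 4. Axin2, the scaffold that is itself a common target of beta-catenin, averaged 5.57 CPM in basophils and 1.08 CPM in DN-GMPs, a difference of 3.39 (SE 0.937, limma adjusted p = 0.0115).

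Of 16 listed TCF and LEF factors and their co-factors, 6 rose and 1 fell between basophils and Pre-BMPs (13.9% and 16.5% of all genes). By limma 0 passed between Pro-BMPs and DN-GMPs (1 at an unadjusted p under 0.05) and 0 between Pre-BMPs and Pro-BMPs (5), and 0 with voom weights. Over all genes 2.53% and 9.49% were called in these pairs. The co-repressor Tle1 stood at 74.5, 80.7 and 80.7 CPM in basophils, against 13.9, 11.3 and 18.4 CPM in Pre-BMPs, a difference of 2.46 (SE 0.325, limma adjusted p = 1.85e-04). Bcl9, which bridges beta-catenin to Pygopus, was lower by -3.60 (SE 0.734, limma adjusted p = 0.00329), at 0.617 CPM in basophils against 5.71 CPM in Pre-BMPs. Tcf7l2 averaged 0.0539 CPM in basophils and 2.63 CPM in DN-GMPs (log2 difference -5.86, limma adjusted p = 0.00790).

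Of 14 Wnt receptors and transducers, 0 rose and 2 fell between Pro-BMPs and DN-GMPs (2.00% and 0.536% of all genes). These were Fzd9, at 0.205 CPM in Pro-BMPs against 4.64 CPM in DN-GMPs (limma adjusted p = 0.0425), and Wls, which carries Wnt proteins to the surface, at 99.9 CPM against 149 CPM (limma adjusted p = 0.0183). The Fzd9 call was lost whichever library was left out except Pro-BMP replicate 3 (adjusted p of 0.0543 to 0.145), and the Wls call without DN-GMP replicate 3 or Pro-BMP replicate 1 or 2 (0.0690 to 0.0766). Between basophils and Pre-BMPs 2 of the 14 rose and 1 fell (13.9% and 16.5% of all genes). Wls rose, averaging 174 CPM in basophils and 86.1 CPM in Pre-BMPs, and so did Fzd4, at 25.2 and 2.67 CPM. The Fzd4 call was lost in 5 of 12 fits that left out a library. Ryk fell, at 0.0231 CPM in basophils and 1.77 CPM in Pre-BMPs. Of 11 listed beta-catenin targets, 3 rose (Cd44, Jun and Rnf43) and 2 fell between basophils and Pre-BMPs (13.9% and 16.5% of all genes). Between Pre-BMPs and Pro-BMPs 1 of the 11 fell, Cd44 (4.69% of all genes fell). Between Pre-BMPs and DN-GMPs Jun rose while Cd44 and Myc fell (12.2% of all genes rose and 9.69% fell). Cd44 and Myc were named after their values were seen. Rnf43, a ubiquitin ligase that removes Frizzled receptors, stood at 182, 121 and 144 CPM in basophils, against 4.07, 6.82 and 10.5 CPM in Pre-BMPs (log2 difference 4.47, SE 1.28, limma adjusted p = 0.0205). Ccnd1 was lower in basophils than in DN-GMPs, at 0.0617 CPM against 4.66 CPM (limma adjusted p = 0.00283). The Rnf43 call was lost without Pre-BMP replicate 1 or 2 or basophil replicate 1 (adjusted p of 0.0532 to 0.0679). The 3 calls of higher targets came to 1 without Pre-BMP replicate 1 or 2 or without basophil replicate 1. The 2 calls of lower targets, Ccnd1 and Myc, came to 1 without any DN-GMP library, Pro-BMP or Pre-BMP replicate 1 or 2 or basophil replicate 1, and to 1 with 5 reads added, with no mean-variance trend and with the 2 populations fitted alone. Ccnd1 lost its call in that pair also with quantile normalization (adjusted p = 0.283), with voom weights (adjusted p = 0.196) and without basophil replicate 3 (adjusted p = 0.155).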

How the data were processed

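RNA from sorted bone marrow cells was sequenced after SmartSeq v4 and Nextera XT library preparation, per the labels' protocols. The submitters' processing notes name Trimmomatic, STAR, deepTools and HTSeq, without versions. The sources used here give neither a genome build nor an annotation. The authors deposited log2 values, with 0.5 read added and relative to 1000000 reads of a scaled library size. Taken back to reads, 100% of the values came out whole, with a tolerance of 0.001, and CPM is given without the added 0.5. The 3 rows that name no gene (6.65% to 12.6% of a library's reads in no feature, 3.63% to 4.14% ambiguous, 8.51% to 12.1% not unique) stayed out of the tests, and 0 columns belonged to no sample.

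On the deposited log2 values limma 3.58.1 (R 4.3.3) fitted 1 mean per population over the 12 libraries, with a mean-variance trend and no block. A moderated F-test and 6 two-sided contrasts were adjusted by Benjamini-Hochberg over 14560 genes, with a threshold of 0.05. Ratios within libraries were tested with exact permutations (Python 3.11.15). Gene models of GENCODE M21 matched 14515 gene IDs. Alternatives were 8 other settings and leaving out each of 12 libraries.

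The 4 genes, the lists and the rules were chosen with earlier results of these data known. Genes named were the 4 members, all listed cadherin and catenin relatives, up to 4 genes per other list with an adjusted F-test p under 0.05, at least 1 CPM in a population and the largest range, and the 3 genes with the highest Pearson r with each member. The labels number the libraries 1 to 3 but do not say that a number marks a mouse, so p-values rest on the spread among libraries, which may be technical. The counts for the list of p120 and cadherin phosphorylation partners are not reported here.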

Additional observations from a re-analysis of the deposited data

How the results depend on the processing

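The 4 genes were tested in 28 results (6 pairs and the F-test each). Cdh1 between Pre-BMPs and Pro-BMPs stayed at 1.78 on the log2 scale but lost its call with no mean-variance trend (adjusted p = 0.0859) and with a replicate block (adjusted p = 0.0705). It ranged from 1.62 to 2.00 when a library was left out. Cdh1 between Pro-BMPs and DN-GMPs, at 8.98 with voom weights, had an adjusted p of 0.114. Ctnnd1 between basophils and Pro-BMPs was at -1.74 with voom weights (adjusted p = 0.0571) and ran from -2.03 to -1.40 with a library left out, and against Pre-BMPs from -2.23 to -1.60. The Ctnnd1 F-test adjusted p ran from 0.0123 to 0.0598 with a library left out, the highest without basophil replicate 1. Ctnnb1 with quantile normalization was at -0.29 in basophils against Pre-BMPs (adjusted p = 0.0383), -0.33 against Pro-BMPs (adjusted p = 0.0167) and -0.11 against DN-GMPs (adjusted p = 0.399), with an F-test adjusted p of 0.0369. With reads on listed genes as the library size these were -0.33 (adjusted p = 0.0188), -0.36 (adjusted p = 0.00879), -0.18 (adjusted p = 0.132) and 0.0240. The Ctnnb1 difference between basophils and DN-GMPs thus changed sign with both scalings and was called with neither. With a library left out, uncalled differences changed sign for Ctnnd1 (-0.0691 to 0.354) and Ctnnb1 (-0.111 to 0.0111) between Pre-BMPs and Pro-BMPs and for Ctnnb1 between basophils and Pre-BMPs (-0.0845 to 0.0482). The cause of these changes was not tested. Genes called between Pro-BMPs and DN-GMPs numbered 369, 228 when only the 2 populations were fitted and 231 to 481 with a library left out, the lowest without Pro-BMP replicate 3. Between Pre-BMPs and Pro-BMPs they numbered 1382 and 778 to 1420, with 885, 778 and 792 without Pro-BMP replicate 1, Pro-BMP replicate 2 and Pre-BMP replicate 3. The 3 ratios within libraries kept their calls with 5 reads added, with a library left out and with a replicate block (adjusted p = 0.00521, 0.00521 and 0.0191). Deviations of 18 pairs of libraries with the same replicate number correlated at -0.0729 to 0.102 over 8652 genes, and 6 of 12 libraries matched their own number best. No pairing was thus seen in the values, which cannot exclude that libraries with the same number came from 1 mouse. The block changed 1 of 28 calls, and the calls it lost among other named genes include those of Tjp1 between Pre-BMPs and Pro-BMPs (adjusted p = 0.0515), Ctnnbl1 between basophils and DN-GMPs (adjusted p = 0.0578) and Fzd9 between Pro-BMPs and DN-GMPs (adjusted p = 0.0778). Of 209 called results of the other named genes, 150 kept their call in all alternatives, 49 lost it in at least 1 fit with a library left out, 39 in at least 1 other setting, and 0 changed sign. Depth limits Cdh1 in DN-GMPs, which rests on 12 reads in all.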
